A study of Mus musculus with 36 samples.

Results

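Progress through the cell cycle was followed through 36 control genes, taken from a named list out of the 46603 genes of the count tables: cyclins, cyclin-dependent kinases (CDKs), their activators and inhibitors, the retinoblastoma (pocket) proteins and the factors that work with them. They were measured by RNA sequencing in the developing mouse cortex of an allelic series of *Chd8*, the gene of a chromatin remodeller in which mutations are associated with autism. The question of the design was how gene expression changes as *Chd8* is lowered stepwise. Neocortex of embryonic day 12.5 (E12.5) was taken on C57Bl/6J from 3 embryos of each genotype: the wildtype *Chd8* +/+, the heterozygote *Chd8* +/-, the mild hypomorph *Chd8* neo/neo and the severe hypomorph *Chd8* neo/-. The null allele (-) lacks exon 3 in every cell, whereas the neo allele is a hypomorph that carries a neomycin cassette behind exon 3, so that part of its transcripts is spliced into the cassette. Telencephalic vesicles of E10.5 came from conditional knockouts (cKO; sox1-Cre; Chd8f/f) and from controls (Ctrl), each with 3 libraries of 2 pooled embryos. Sox1-Cre removes exon 3 in the early neural progenitors, so that blood, vessels and mesenchyme in the same dissection keep the gene. The Ctrl group combines Chd8f/f and *Chd8* f/+ and no Cre is named for it, so an effect of Cre or of the control genotypes cannot be told apart from the loss of *Chd8*.

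Cells enter the cycle when D-type cyclins with *Cdk4* and *Cdk6*, and later E-type cyclins with *Cdk2*, phosphorylate the pocket proteins and release E2F factors, which switch on the genes of DNA replication. Cyclin A, cyclin B and *Cdk1* then carry the cell through S phase, G2 and mitosis, under the control of CDC25 phosphatases, which activate the kinases, and of *Wee1* and *Pkmyt1*, which hold them back. In the embryonic cortex, progenitors that leave the cycle raise CDK inhibitors such as p27 (*Cdkn1b*) and become neurons.

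The libraries held 38774591 to 61051667 counts at E12.5 and 49632937 to 68488879 at E10.5, and levels are given as CPM, a gene's count relative to the TMM-scaled total of its library, per library or as mean ± SD (n = 3). *Chd8* read 237, 235 and 239 CPM in the +/+ libraries, 165, 170.2 and 165 in +/-, 213, 203 and 211 in neo/neo and 158, 147 and 142 in neo/-, and 160.0, 168 and 184 in Ctrl against 120.5, 125 and 116 in cKO. Each mutant group lay below its controls, but the neo/neo libraries all lay above those of +/-. So this count does not follow the stepwise lowering of the design. It takes in reads outside the lost exon and does not separate neo transcripts spliced into the cassette, and so does not measure functional transcript. Changes are given as log2 fold changes with their standard error (SE) and the Benjamini-Hochberg adjusted p of edgeR's quasi-likelihood test over all genes, and a gene was called when this adjusted p was under 0.05. Where DESeq2 called further genes of the 36 against controls, these are named with their group. By *Xist* and Y-linked counts 4 of 12 E12.5 libraries were female, +/+ 3, +/- 1 and neo/neo 1 and 2, none of them neo/-. At E10.5 the pools Ctrl 1 and 3 read as female, Ctrl 2 as male and all 3 cKO pools as mixed, with *Xist* at 695 to 1069 CPM and Y-linked genes at 69.8 to 133 CPM, so the sex make-up differed between Ctrl and cKO. With sex-linked expression as a covariate, all 6 genes of the 36 called in cKO kept their calls and *Cdc25c* was called as well, at -0.20 (adjusted p = 0.0497). The third neo/neo library was the only male of its group. It stood apart from the other 2, with 6975 CPM over 48 S phase genes against 7776 and 7689. Values without it are given beside the counts it moved. They leave neo/neo all female, so an effect of sex cannot be told apart in them. With the sex covariate the number called over all genes went from 1534 to 1006 in neo/neo. In neo/neo against +/- it went from 994 to 330. In these bulk samples fewer cells of a type and less RNA per cell cannot be told apart.

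In control tissue the G1 kinase *Cdk4* had the highest level per kilobase of exon among the 36 transcripts at both stages. It reached 252 ± 14.9 CPM per kilobase of exon in +/+ neocortex and 303 ± 25.1 in Ctrl vesicles, above all others without overlap of the libraries. Of the *Cdk4* exon bases, 18.6% are shared with *Tspan31* on the opposite strand. At E12.5 *Cdk4* was followed by *Ccnd2* with 133 ± 5.76 CPM per kilobase. Next came *Cks2*, a small subunit bound to CDKs, with 104 ± 6.83, whose libraries overlapped those of *Ccnd1* with 92.9 ± 7.23. The mitotic genes *Ccna2*, *Ccnb1*, *Ccnb2* and *Cdk1* then ranged from 73.5 down to 42.4 CPM per kilobase. The lowest measured level at E12.5 was that of *Cdk6*, the other G1 kinase, with 4.81 ± 0.343, which overlapped that of *Lin9*. At E10.5 *Cks2* (222 ± 26.03) and *Cks1b* (138 ± 14.04) came before *Ccnd1* (97.7 ± 7.26), and *Ccnd2* stood at 50.97 ± 5.21. *Cdkn1b* read 34.9 ± 0.490 CPM per kilobase at E12.5 and 15.2 ± 0.683 at E10.5. The stages were sequenced and scaled separately, so these levels stand side by side without a test. *Cdkn2a*, which encodes the inhibitors p16 and p19ARF, had 0 to 3 counts in every library and was not tested, which leaves 35 genes.

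**Figure D1:**
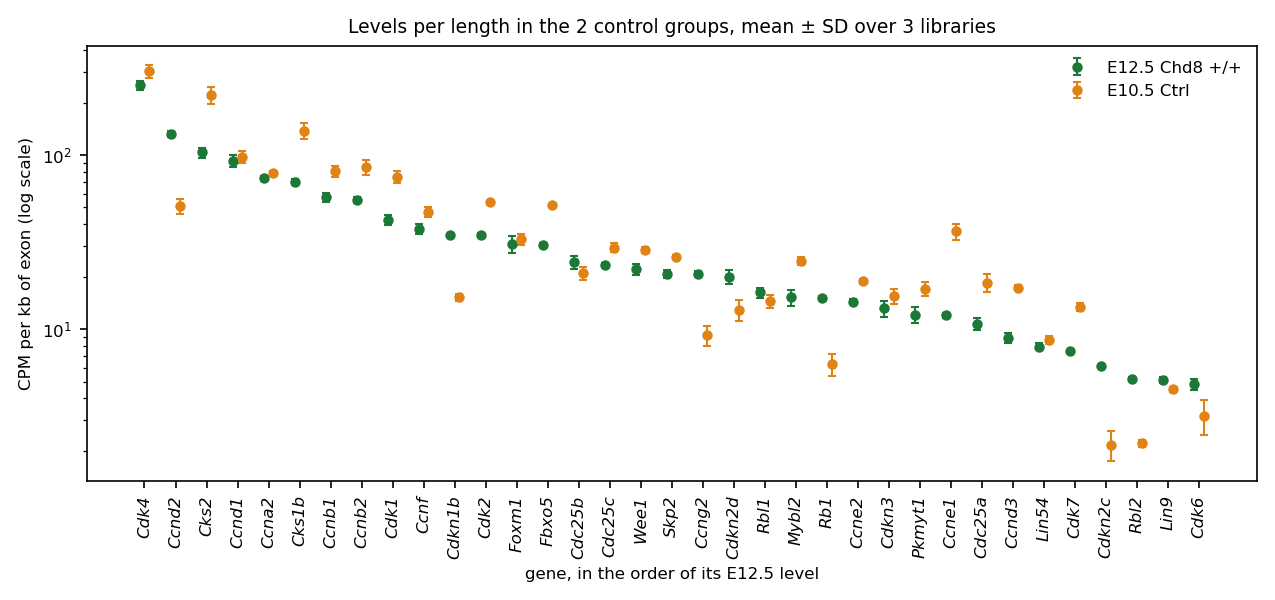
Levels of the 35 tested genes in control tissue, as CPM per kilobase of exon on a log axis, in *Chd8* +/+ at E12.5 and Ctrl at E10.5, with genes ordered by the E12.5 mean. Points are means and bars the SD over 3 libraries, and *Cdk4* is highest at both stages.

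Loss of 1 *Chd8* allele left the 35 genes without a called change, whereas both hypomorphs and the conditional knockout had some. In *Chd8* +/- neocortex 0 of 35 genes were called by edgeR and 0 by DESeq2, against 0.0213% of all 18810 genes tested. At an unadjusted p under 0.05 there were 2, namely *Cdkn1b* at -0.14 (SE 0.042, adjusted p = 0.612) and *Rb1* at 0.10 (SE 0.038, adjusted p = 0.732). In neo/neo neocortex 4 genes rose (*Ccne1*, *Pkmyt1*, *Rbl1* and *Mybl2*) and 1 fell (*Cdkn1b*), which is 14.3% of the 35, where 8.16% of all genes were called, 3.71% higher and 4.45% lower. In neo/- neocortex 5 rose (*Ccnd3*, *Cks2*, *Cdkn3*, *Rbl1* and *Mybl2*) and 2 fell (*Cdkn1b* and *Rbl2*), 20% of the 35 against 11.5% of all genes, 5.48% higher and 5.99% lower. In cKO vesicles 3 rose (*Ccnd3*, *Ccnf* and *Mybl2*) and 3 fell (*Cdkn1b*, *Cdk2* and *Cks2*), 17.1% against 11.4% of all genes, 5.75% higher and 5.70% lower. The 3 E12.5 comparisons share their +/+ libraries and 1 estimate of the spread from all 4 genotypes. In a fit of +/+ and neo/neo alone none of the 35 genes rose, and 430 of all genes were called, against 1534. In a fit of +/+ and neo/- alone 2687 of all genes were called, against 2158. The counts are small and moved with single libraries, as did those over all genes. Without neo/neo replicate 3, 8 genes rose in neo/neo, while over all genes the called number went from 1534 to 2605 (999 higher and 1606 lower), and without +/+ replicate 2, neo/neo replicate 1 or neo/neo replicate 2 none did. In neo/- the count of genes that rose was 0 without +/+ replicate 1 or neo/- replicate 2, 1 without neo/- replicate 1, 2 without +/+ replicate 2 and 3 without neo/- replicate 3, and 1 gene fell without +/+ replicate 1 or 3 or any neo/- library. With the trends of gene length and GC content removed, 2 rose and 1 fell in neo/-, and 1292 of all genes were called. In cKO the count that rose was 1 without Ctrl replicate 3, cKO replicate 2 or cKO replicate 3, while the count that fell was 1 without cKO replicate 2 or 3 and 6 without Ctrl replicate 2.

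Over the 35 genes the median log2 fold change was 0.10 in neo/neo, with 27 positive, and 0.09 in neo/-, with 23 positive, while over all genes tested it was 0.0053 and 0.0011. In cKO vesicles it was -0.05, with 25 of 35 negative, against -0.0019 over all genes. The libraries of neo/neo lay wholly above those of +/+ for 9 of the 35 genes (25.7%) and wholly below for 2 (5.71%), where 12.5% and 13.5% of all genes tested did so. Those of neo/- lay wholly above for 13 (37.1%) and wholly below for 2 (5.71%), against 16.4% and 16.9% of all genes. In cKO, 4 genes (11.4%) lay wholly above Ctrl (*Ccnd3*, *Ccnf*, *Cdk6* and *Mybl2*) and 10 (28.6%) wholly below, against 15.7% and 16.6%.

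Set against each other directly, the 2 hypomorphs gave no called difference in these genes, and neo/neo and +/- gave 6. Between neo/- and neo/neo 0 of 35 genes were called by edgeR and by DESeq2, against 0.0159% of all genes, and 4 had an unadjusted p under 0.05. Between neo/neo and +/-, 4 of 35 were higher in neo/neo (*Ccne1*, *Cdk2*, *Pkmyt1* and *Mybl2*) and 2 lower (*Cdkn1b* and *Rb1*), 17.1% against 5.28% of all genes, of which 2.00% were higher and 3.28% lower. The replicate numbers of these 2 groups were taken to pair the samples, from correlations of 0.11, 0.20 and 0.20. No label or method names what the numbers share, so the pairing is an assumption. With the replicate block 2 genes were higher (*Ccne1* and *Pkmyt1*) and 0 lower. With the trends of gene length and GC content removed as well, there were 0 and 0. Without +/- replicate 1, neo/neo replicate 1 or neo/neo replicate 2 no gene was higher either, 2 were without +/- replicate 3, and 11 were without neo/neo replicate 3, where the number called over all genes went from 994 to 2100. The count of lower genes was 0 without +/- replicate 1, neo/neo replicate 1 or neo/neo replicate 2 and 1 without +/- replicate 2 or 3.

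**Figure D2:**
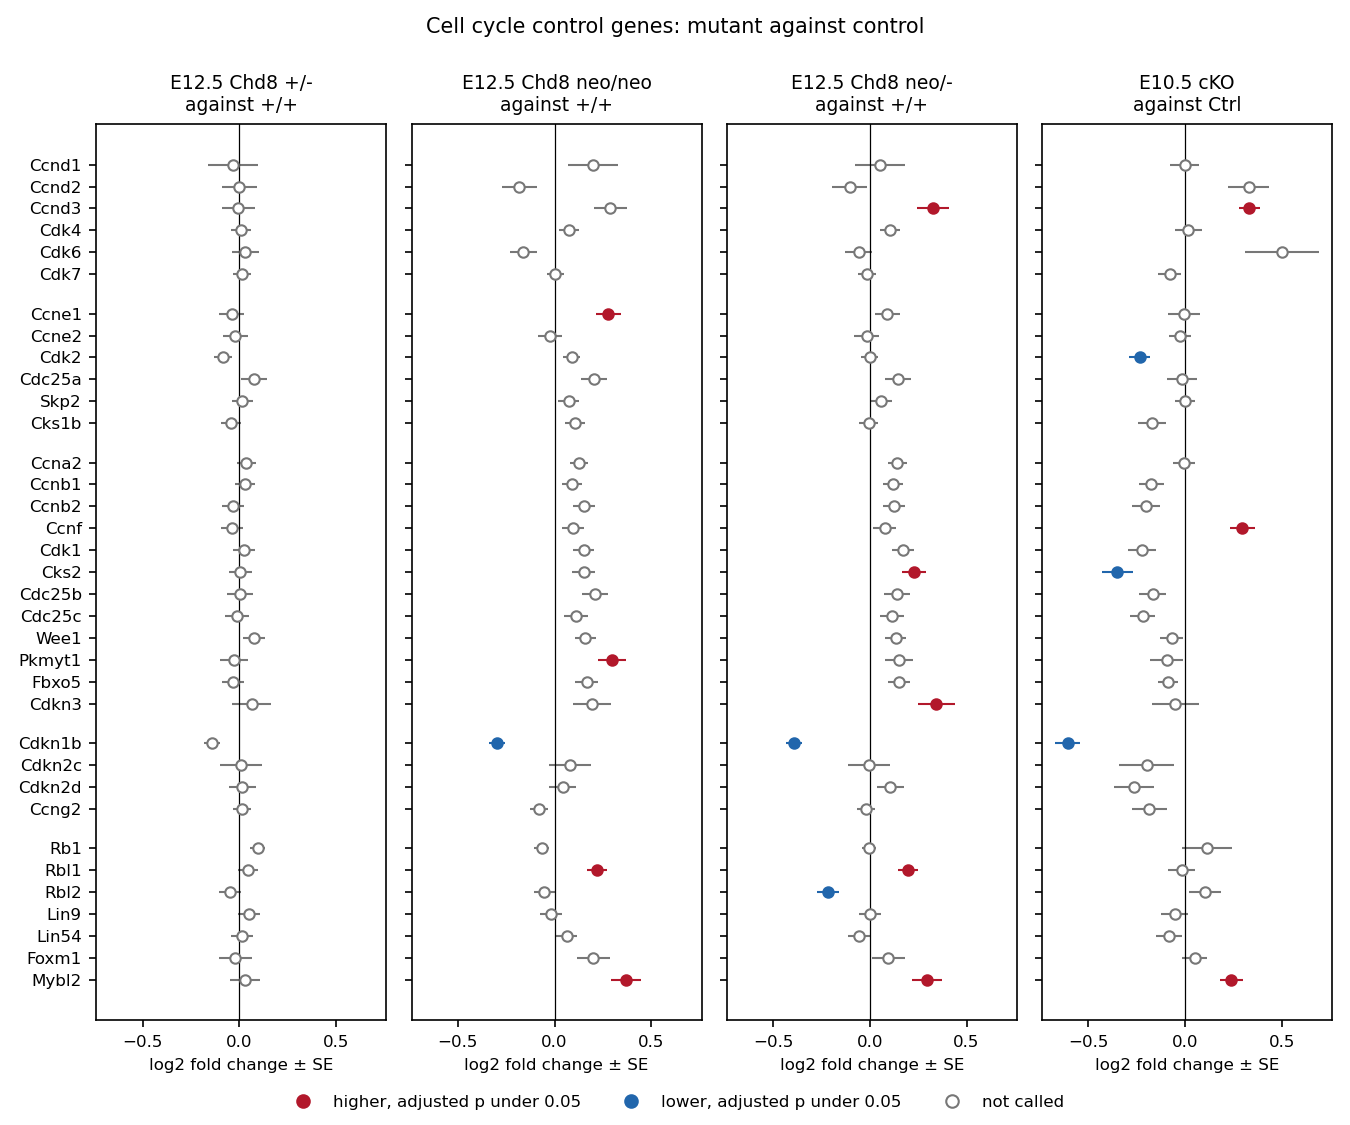
Log2 fold change of each of the 35 tested genes, grouped by role, in *Chd8* +/-, neo/neo and neo/- against +/+ at E12.5 and in cKO against Ctrl at E10.5. Filled points passed an adjusted p of 0.05 and bars are the SE. The fall of *Cdkn1b* is present in neo/neo, neo/- and cKO, and the S, G2 and M group lies above 0 in both hypomorphs and mostly below 0 in cKO.

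The transcript of the CDK inhibitor p27 fell in both hypomorphs and in the conditional knockout. *Cdkn1b* (ENSMUSG00000003031, chromosome 6, 134920401 to 134925513, + strand, GRCm38) read 160.0, 156 and 161 CPM in +/+, 145, 136 and 152 in +/-, 132, 125 and 131 in neo/neo and 122, 122 and 119.5 in neo/-. The 4 genotypes followed each other without overlap of their libraries. The log2 fold change against +/+ was -0.30 (SE 0.042, adjusted p = 0.00191) in neo/neo and -0.39 (SE 0.042, adjusted p = 9.23e-05) in neo/-. The step from neo/neo to neo/- was -0.10 (SE 0.042, adjusted p = 0.574) and was not called. That from +/- to neo/neo was -0.16 (SE 0.042, adjusted p = 0.0448), a call kept in 6 of 15 other settings and lost under the replicate block. At E10.5 the gene read 70.6, 65.7 and 71.5 CPM in Ctrl and 42.6, 47.9 and 46.01 in cKO, a change of -0.61 (SE 0.065, adjusted p = 0.000392). The calls in neo/neo, neo/- and cKO held in 14 of 14, 14 of 14 and 15 of 15 other settings. Over 12 neuron markers the summed level was 3376 to 4025 CPM in neo/neo and 3763 to 4199.9 in neo/- against 4186 to 4953 in +/+, and its part in the fall of *Cdkn1b* was not tested.

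The remaining genes of this group were not called in any of these comparisons by edgeR or DESeq2. *Cdkn2c* (p18) and *Cdkn2d* (p19INK4d) bind *Cdk4* and *Cdk6*, and *Ccng2* is an unusual cyclin linked to arrest. In the hypomorphs their log2 fold changes lay between -0.08 for *Ccng2* in neo/neo and 0.11 for *Cdkn2d* in neo/-. In cKO they stood at -0.20 for *Cdkn2c*, -0.26 for *Cdkn2d* and -0.18 for *Ccng2*, with adjusted p of 0.407, 0.129 and 0.221. So 0 of the 4 measured members of the group had a positive value in cKO.

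The promoter of *Cdkn1b* is shown because its calls against controls were kept under all settings tried. Promoters were searched on both strands for the E2F site (TTTGGCGC, TTTCCCGC, TTTCGCGC or TTTGCCGC), the cell cycle homology region or CHR (TTTGAA or TTCGAA), which binds the MuvB complex, and the CCAAT box (CCAAT). No letter string lies within another. Only exact matches were counted, so variants of a site are missed. The windows are from RefSeq (GRCm38.p6), from 250 bases before to 50 after the start of the gene, and 26 of the 36 genes had at least 1 (31 windows). Among these, 5 (16.1%) held an E2F site against 2.26% of all 32851 windows, 11 (35.5%) a CHR against 19.2%, and 18 (58.1%) a CCAAT box against 37.4%. The *Cdkn1b* window (chr6:134920151-134920450, + strand) held 3 CCAAT boxes, in capitals, and neither of the other motifs.
Cdkn1b: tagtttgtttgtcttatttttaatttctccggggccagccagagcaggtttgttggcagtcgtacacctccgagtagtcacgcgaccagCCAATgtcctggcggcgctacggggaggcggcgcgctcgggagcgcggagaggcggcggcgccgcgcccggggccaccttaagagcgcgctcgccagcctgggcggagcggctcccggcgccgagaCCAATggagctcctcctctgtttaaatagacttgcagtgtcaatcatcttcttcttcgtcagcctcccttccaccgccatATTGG

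Of the D-type cyclins only *Ccnd3* was called against controls by edgeR, and it rose in neo/- and cKO. Cyclin D3 activates *Cdk4* and *Cdk6*. *Ccnd3* (ENSMUSG00000034165, chromosome 17, 47505051 to 47599691, + strand) read 76.8, 73.7 and 83.9 CPM in +/+, 72.1, 84.6 and 76.9 in +/-, 96.6, 106 and 83.6 in neo/neo and 93.8, 105 and 95.5 in neo/-. The neo/- libraries all lay above +/+, and the third neo/neo library lay within +/+. The log2 fold change was 0.33 (SE 0.085, adjusted p = 0.0281) in neo/- and 0.29 (SE 0.085, adjusted p = 0.0568) in neo/neo, not called by edgeR but by DESeq2 (0.29, adjusted p = 0.0124). In Ctrl it read 146, 153 and 157 CPM and in cKO 189.7, 189 and 194, a change of 0.33 (SE 0.054, adjusted p = 0.00409) that held in 15 of 15 other settings, against 8 of 14 for the call in neo/-. Of its exon bases 4.11% are shared with *Bysl* on the opposite strand, and counts were not stated to use strand.

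The other D-type cyclins and their kinases were not called against controls by edgeR. *Ccnd2* read 432, 477 and 530.0 CPM in Ctrl and 518, 602 and 687 in cKO, and its change was 0.33 (SE 0.11, adjusted p = 0.0794). *Cdk6* read 33.1, 48.2 and 52.4 CPM in Ctrl and 59.2, 57.5 and 72.5 in cKO without overlap, and its change was 0.50 (SE 0.19, adjusted p = 0.159). DESeq2 called both in cKO, at 0.33 and 0.51. *Ccnd1*, 21.3% of whose exon bases overlap another gene, stood at 0.20 in neo/neo, 0.06 in neo/- and -0.00057 in cKO. *Cdk4* was at 0.07, 0.10 and 0.02, and *Cdk7*, the kinase that activates other CDKs, at 0.0035, -0.02 and -0.08.

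Among the 6 genes of the G1/S transition, *Ccne1*, the gene of cyclin E1, rose in neo/neo and that of its kinase, *Cdk2*, fell in cKO. *Ccne1* (ENSMUSG00000002068, chromosome 7, 38097984 to 38107534, - strand) read 30.9, 32.5 and 32.7 CPM in +/+, 31.9, 28.6 and 32.96 in +/-, 40.3, 40.6 and 35.5 in neo/neo and 34.1, 35.3 and 32.8 in neo/-. All neo/neo libraries lay above those of +/+ and +/-. The log2 fold change was 0.28 (SE 0.064, adjusted p = 0.0200) against +/+ and 0.32 (SE 0.065, adjusted p = 0.0199) against +/-, kept in 8 of 14 and 9 of 15 other settings. In neo/- it was 0.09 (SE 0.065, adjusted p = 0.409) and in cKO -0.0038 (SE 0.083, adjusted p = 0.984), neither called.

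*Cdk2* (ENSMUSG00000025358, chromosome 10, 128697939 to 128705051, - strand) read 133, 131 and 129 CPM in Ctrl and 115, 111 and 109 in cKO. All cKO libraries lay below Ctrl, with a change of -0.23 (SE 0.053, adjusted p = 0.0184). At E12.5 *Cdk2* read 86.4, 82.4 and 86.04 CPM in +/+, 79.3, 76.7 and 84.4 in +/-, 94.5, 90.1 and 86.6 in neo/neo and 85.8, 85.1 and 83.9 in neo/-, and its call was that of neo/neo against +/-, 0.17 (SE 0.045, adjusted p = 0.0432), kept in 4 of 15 other settings. *Ccne2* (cyclin E2), *Cdc25a* (the phosphatase that activates *Cdk2*), *Skp2* (which targets p27 for degradation) and its cofactor *Cks1b* were called in none of these comparisons by edgeR, while DESeq2 called *Cdc25a* in neo/neo, at 0.20 (adjusted p = 0.0408). Their values ranged from -0.17 for *Cks1b* in cKO to 0.20 for *Cdc25a* in neo/neo.

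The 12 genes of S phase, G2 and mitosis had positive values in both hypomorphs and, *Ccnf* excepted, negative values in cKO, with few calls. In neo/neo all 12 were positive with a median log2 fold change of 0.15 and 1 called, where 8.16% of all genes were called. In neo/- all 12 were positive with a median of 0.14 and 2 called, where 11.5% of all genes were. In cKO 1 of 12 was positive, the median was -0.13, and 1 rose and 1 fell, where 11.4% of all genes were called. Each of these counts rests on 1 or 2 genes. Such genes are known to vary together over the cycle, so the 12 values are not independent. They stood beside a sum of neuron markers that was lower in neo/neo and had a lower median, with overlapping libraries, in neo/-. The part of these markers was not tested. The genes called by edgeR were *Pkmyt1* in neo/neo, *Cks2* and *Cdkn3* in neo/-, and *Ccnf* and *Cks2* in cKO. DESeq2 called these and also *Cdc25b* in neo/neo (0.21, adjusted p = 0.0352), *Ccna2* and *Cdk1* in neo/-, and *Cdc25c* (-0.21, adjusted p = 0.0366) and *Cdk1* in cKO.

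*Cks2* (ENSMUSG00000062248, chromosome 13, 51645232 to 51650660, + strand) was called in opposite directions at the 2 stages. It read 67.2, 76.6 and 71.1 CPM in +/+, 72.7, 67.2 and 75.7 in +/-, 79.6, 84.5 and 74.4 in neo/neo and 84.9, 85.7 and 81.1 in neo/-. The neo/- libraries all lay above those of +/+, with a change of 0.23 (SE 0.06, adjusted p = 0.0260). In Ctrl it read 174, 143 and 143 CPM and in cKO 127, 116 and 118, all below Ctrl, with a change of -0.35 (SE 0.08, adjusted p = 0.0200). The calls held in 9 of 14 and 13 of 15 other settings. Over these settings the change ranged from 0.14 to 0.28 in neo/- and from -0.40 to -0.25 in cKO. *Cks2* has 692 exon bases, the fewest of these genes, and removal of length and GC trends was among the settings.

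*Cdkn3*, a phosphatase that acts on CDKs, read 8.92, 10.7 and 10.9 CPM in +/+ and 11.7, 13.7 and 13.3 in neo/-, with a change of 0.34 (SE 0.10, adjusted p = 0.0356) against -0.05 (SE 0.12, adjusted p = 0.830) in cKO. *Pkmyt1* read 26.6, 21.8 and 25.5 CPM in +/+ and 31.3, 30.2 and 29.4 in neo/neo, a change of 0.30 (SE 0.072, adjusted p = 0.0236), and 15.4% of its exon bases are shared with *Paqr4* on the opposite strand. *Ccnf* (cyclin F, part of a ubiquitin ligase) read 156, 135 and 147 CPM in Ctrl and 174, 178 and 186 in cKO, a change of 0.29 (SE 0.064, adjusted p = 0.0161). These 3 genes were each called in 1 of the 3 comparisons of these mutants with controls, by edgeR and by DESeq2.

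The mitotic kinase *Cdk1* and its cyclins were not called against controls by edgeR. DESeq2 called *Cdk1* (0.17, adjusted p = 0.0467) and *Ccna2* (0.14, adjusted p = 0.0418) in neo/- and *Cdk1* in cKO (-0.22, adjusted p = 0.0382). *Cdk1* stood at 0.15 (SE 0.056, adjusted p = 0.109) in neo/neo, 0.17 (SE 0.056, adjusted p = 0.0605) in neo/- and -0.22 (SE 0.071, adjusted p = 0.0676) in cKO. *Ccnb2* (cyclin B2) stood at 0.15, 0.13 and -0.20, *Ccnb1* at 0.09, 0.12 and -0.17, and *Ccna2* (cyclin A2) at 0.13, 0.14 and -0.01 in the same order. *Cdc25b* and *Cdc25c*, the phosphatases that activate *Cdk1*, were at 0.21 and 0.11 in neo/neo and at -0.17 and -0.22 in cKO. *Wee1* was at 0.16 and -0.07, and *Fbxo5*, an inhibitor of the anaphase-promoting complex, at 0.17 and -0.09.

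The promoters of *Cdk1* (chr10:69352863-69353162, - strand), *Ccnb2* (chr9:70421505-70421804, - strand) and *Cks2* (chr13:51644982-51645281, + strand) are shown as 3 of the genes whose effects differed between the stages from both hypomorphs, with motifs in capitals. The first holds 1 E2F site, 2 CHR and 3 CCAAT boxes, the second 2 CHR and 3 CCAAT boxes, and the third 4 CCAAT boxes.
Cdk1: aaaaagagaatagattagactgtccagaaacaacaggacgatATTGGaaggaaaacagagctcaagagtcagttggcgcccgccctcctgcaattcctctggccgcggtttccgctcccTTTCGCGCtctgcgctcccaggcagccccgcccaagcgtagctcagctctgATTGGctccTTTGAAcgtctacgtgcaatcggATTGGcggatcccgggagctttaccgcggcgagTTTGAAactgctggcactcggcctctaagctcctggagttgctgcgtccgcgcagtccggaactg
Ccnb2: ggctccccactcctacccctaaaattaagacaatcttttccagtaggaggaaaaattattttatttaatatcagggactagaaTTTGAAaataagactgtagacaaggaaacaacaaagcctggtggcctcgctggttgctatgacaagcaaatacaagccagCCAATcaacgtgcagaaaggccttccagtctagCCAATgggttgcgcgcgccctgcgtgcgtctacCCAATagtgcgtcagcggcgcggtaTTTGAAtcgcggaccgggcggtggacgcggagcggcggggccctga
Cks2: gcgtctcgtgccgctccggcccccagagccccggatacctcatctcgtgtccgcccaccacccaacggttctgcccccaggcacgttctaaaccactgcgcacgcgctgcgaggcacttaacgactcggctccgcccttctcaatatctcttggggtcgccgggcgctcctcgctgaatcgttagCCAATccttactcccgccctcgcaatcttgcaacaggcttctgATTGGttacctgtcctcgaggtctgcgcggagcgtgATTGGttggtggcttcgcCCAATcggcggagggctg

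Of the pocket protein genes, *Rbl1* (p107) rose in both hypomorphs, *Rbl2* (p130) fell in neo/-, and *Rb1* was not called against controls by edgeR or DESeq2. The protein p107 accompanies E2F factors in cycling cells, and p130 does so in resting cells. *Rbl1* (ENSMUSG00000027641, chromosome 2, 157145893 to 157204534, - strand) read 99.8, 90.2 and 102 CPM in +/+, 98.5, 103 and 99.8 in +/-, 117, 116 and 108 in neo/neo and 118, 109.9 and 107 in neo/-. The log2 fold change was 0.22 (SE 0.052, adjusted p = 0.0222) in neo/neo and 0.20 (SE 0.052, adjusted p = 0.0263) in neo/-, each kept in 10 of 14 other settings. At E10.5 it read 84.3, 81.1 and 95.4 CPM in Ctrl and 81.4, 87.4 and 88.8 in cKO, with a value of -0.02 (SE 0.071, adjusted p = 0.901) that was not called.

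*Rbl2* (ENSMUSG00000031666, chromosome 8, 91070057 to 91123844, + strand), which shares 9.95% of its exon bases with *Aktip*, read 37.01, 35.3 and 36.2 CPM in +/+, 36.7, 33.2 and 35.01 in +/-, 37.1, 32.5 and 35.2 in neo/neo and 30.6, 31.98 and 30.8 in neo/-. The change in neo/- was -0.22 (SE 0.056, adjusted p = 0.0235), kept in 8 of 14 other settings. In neo/neo it stood at -0.05 and in cKO at 0.10, neither called. *Rb1*, which shares 14.9% of its exon bases with other genes, was lower in neo/neo than in +/-, at -0.16 (SE 0.038, adjusted p = 0.0293), and stood at -0.07 against +/+. That difference was kept in 6 of 15 other settings and lost with the replicate block.

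*Mybl2* (B-Myb), which binds the MuvB complex to drive mitotic genes, rose in neo/neo, neo/- and cKO. *Mybl2* (ENSMUSG00000017861, chromosome 2, 163054687 to 163084688, + strand) read 69.9, 63.2 and 78.3 CPM in +/+, 70.9, 70.1 and 75.1 in +/-, 97.4, 94.7 and 81.3 in neo/neo and 88.1, 89.1 and 82.02 in neo/-, and 109, 121 and 112 in Ctrl against 138, 130.1 and 136 in cKO. All libraries of the 3 mutant groups lay above their controls. The log2 fold change was 0.37 (SE 0.078, adjusted p = 0.0142) in neo/neo, 0.29 (SE 0.078, adjusted p = 0.0286) in neo/- and 0.24 (SE 0.059, adjusted p = 0.0271) in cKO, kept in 10 of 14, 8 of 14 and 10 of 15 other settings. The MuvB subunits *Lin9* and *Lin54* and the mitotic factor *Foxm1* were not called by edgeR or DESeq2. *Lin9* stood at -0.02, 0.00029 and -0.05 in the 3 mutants, *Lin54* at 0.06, -0.05 and -0.08, and *Foxm1* at 0.20, 0.09 and 0.05. The promoter window of *Mybl2* held none of the exact letter strings searched, which does not show that it lacks an E2F site with other letters. That of *Rbl1* (chr2:157204485-157204784, - strand), shown as the pocket protein gene that moved in both hypomorphs, held 1 E2F site, in capitals.
Rbl1: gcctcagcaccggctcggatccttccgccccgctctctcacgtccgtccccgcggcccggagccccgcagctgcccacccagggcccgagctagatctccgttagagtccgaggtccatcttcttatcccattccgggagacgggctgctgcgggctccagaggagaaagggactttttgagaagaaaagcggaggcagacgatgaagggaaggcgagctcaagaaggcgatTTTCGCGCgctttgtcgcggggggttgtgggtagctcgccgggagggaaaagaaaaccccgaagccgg

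**Figure D3:**
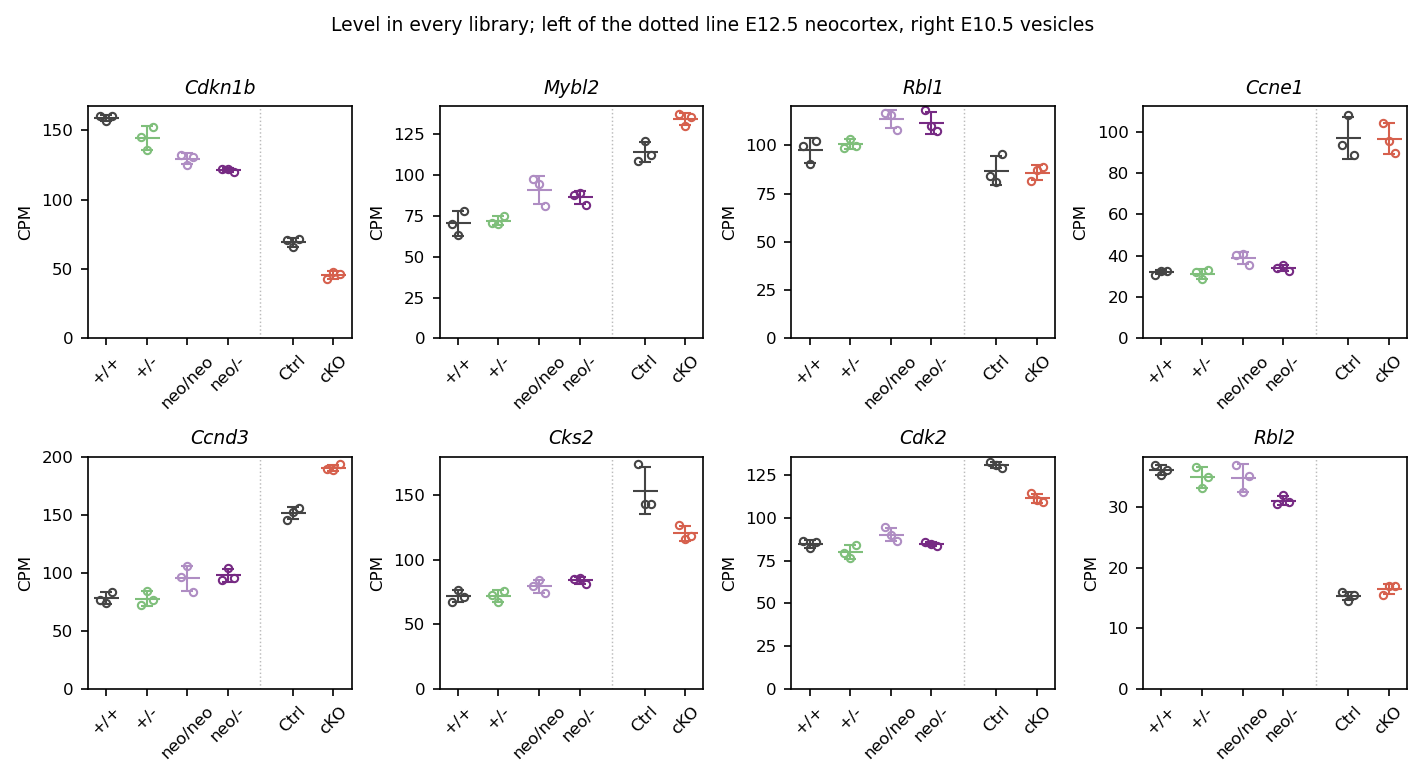
CPM of *Cdkn1b*, *Mybl2*, *Rbl1*, *Ccne1*, *Ccnd3*, *Cks2*, *Cdk2* and *Rbl2* in each of the 18 libraries. Points are libraries, horizontal lines are group means and bars the SD, with the 4 E12.5 genotypes and the 2 E10.5 groups side by side. *Cdkn1b* steps down over the E12.5 genotypes, and *Cks2* is higher in neo/- than in +/+ but lower in cKO than in Ctrl.

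To compare the effects between the stages, the cKO effect was tested against each hypomorph effect in 1 fit of all 18 libraries, where stage, sequencing and type of allele differ together and cannot be told apart. Against neo/-, 6 of 35 genes were lower in the cKO effect (*Cdk2*, *Ccnb1*, *Ccnb2*, *Cdk1*, *Cks2* and *Cdc25c*) and 1 higher (*Rbl2*), 20% where 6.79% of all 19565 genes were called, 2.89% lower and 3.90% higher. Against neo/neo, 9 were lower and 2 higher (*Ccnd2* and *Cdk6*), 31.4% where 6.80% of all genes were called, 3.16% lower and 3.64% higher. Of the 12 genes of S phase, G2 and mitosis, 5 and 7 were lower. These comparisons share the cKO, Ctrl and +/+ libraries. The count of lower genes against neo/- was 1 without cKO replicate 2, 2 without Ctrl replicate 1 or any neo/- library, and 3 without cKO replicate 3 or +/+ replicate 1 or 3. That of higher genes was 2 without cKO replicate 1 and 0 without Ctrl replicate 2, cKO replicate 2 or 3, +/+ replicate 1 or 3 or any neo/- library. Against neo/neo the count of lower genes was 3 without cKO replicate 2 or neo/neo replicate 1, 4 without Ctrl replicate 1 or +/+ replicate 2, and 5 without cKO replicate 3, +/+ replicate 1 or neo/neo replicate 2. That of higher genes was 1 without Ctrl replicate 1 or 2 or neo/neo replicate 3, and 0 without cKO replicate 2 or 3, neo/neo replicate 1 or 2 or any +/+ library.

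*Cks2* had the largest negative difference in both tests. The difference of its effects was -0.58 (SE 0.11, adjusted p = 0.00393) against neo/- and -0.50 (SE 0.11, adjusted p = 0.00917) against neo/neo, kept in 19 of 19 other settings each. For *Cdk1* it was -0.40 (SE 0.094, adjusted p = 0.0175) and -0.37 (SE 0.094, adjusted p = 0.0223), kept in 18 of 19 and 14 of 19, and for *Cdk2* -0.24 (SE 0.062, adjusted p = 0.0296) and -0.33 (SE 0.062, adjusted p = 0.00437), kept in 8 of 19 and 19 of 19. *Cdkn1b* fell more in cKO than in neo/neo, with a difference of -0.31 (SE 0.072, adjusted p = 0.0139), and its difference from neo/- was -0.21 (SE 0.072, adjusted p = 0.0799). Those of *Ccnd3* (0.0024 and 0.04) and *Mybl2* (-0.06 and -0.13) were not called.

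**Figure D4:**
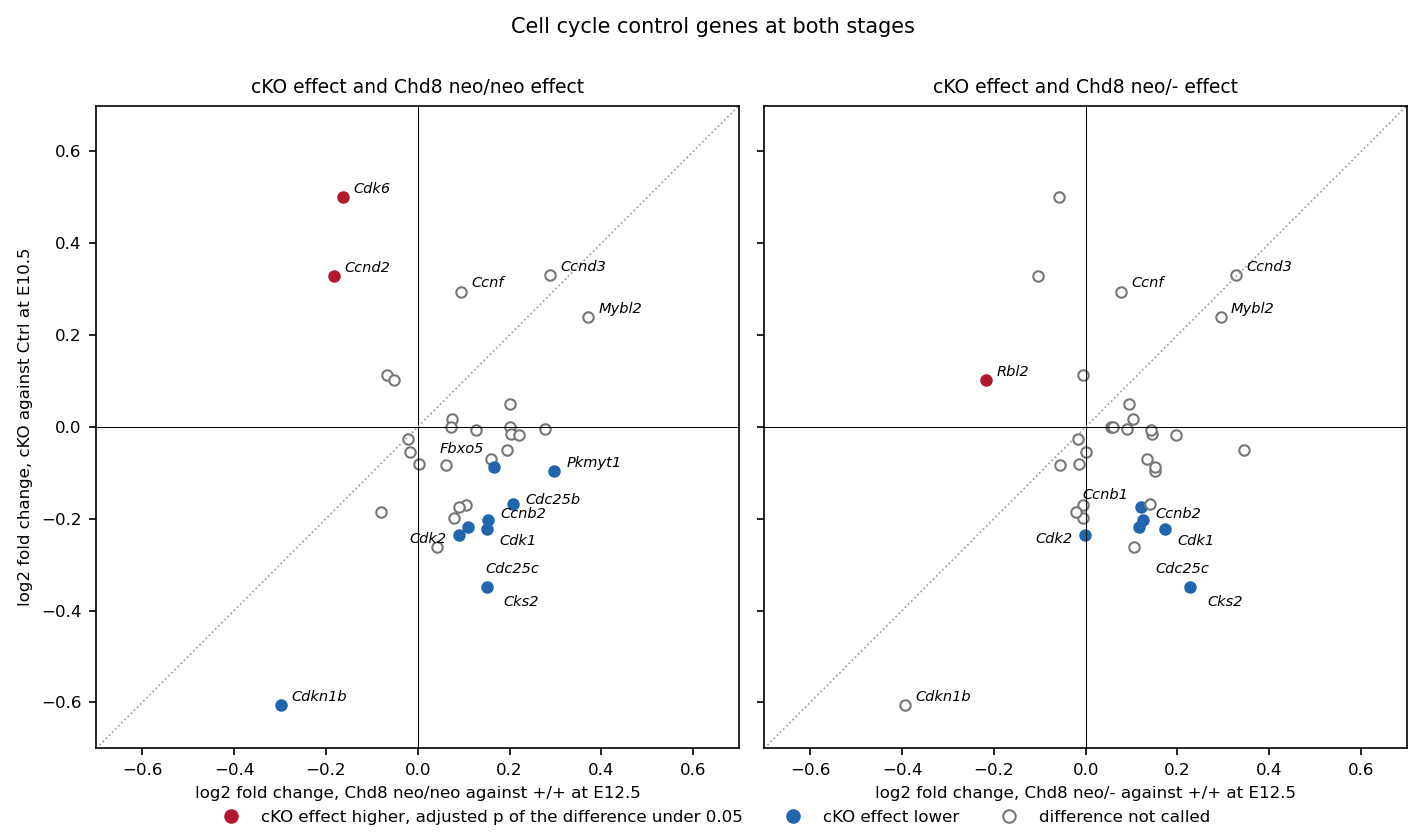
Log2 fold change in cKO at E10.5 (vertical) against that in neo/neo (left) and in neo/- (right) at E12.5, 1 point per gene for the 35 tested genes, with a dotted line of equal effects. Coloured points are genes whose effects differed at an adjusted p under 0.05. Most of these lie in the lower right, positive at E12.5 and negative at E10.5, and *Cdkn1b* lies in the lower left in both panels.

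Genes of replication and mitosis outside the 36 were read from lists. The counts called in these and the following lists stand beside the shares of all genes tested. These were 3.71% higher and 4.45% lower in neo/neo, 5.48% and 5.99% in neo/-, and 5.75% and 5.70% in cKO. Of 48 S phase genes, 15 rose and 0 fell in neo/neo (*Chaf1b* at 0.30 and *Cdt1* at 0.44 among them), 9 rose and 1 fell in neo/-, and 0 rose and 10 fell in cKO, led by *Gmnn* at -0.55. Their median log2 fold changes were 0.14, 0.08 and -0.06. Of 46 genes of G2 and M phase, 8 rose and 0 fell in neo/neo, 7 rose and 1 fell in neo/-, and 3 rose and 7 fell in cKO, where *Gtse1* (0.81) and *Psrc1* (0.56) rose and *Pttg1*, which encodes securin, fell (-0.56). The medians were 0.09, 0.06 and -0.08. In the difference of effects between cKO and neo/-, 0 S phase genes were higher and 11 lower, and 3 and 10 of the G2 and M phase genes. Of all genes, 3.90% were higher and 2.89% lower.

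Of 10 E2F and DP factors, 3 rose in neo/neo (*E2f4* 0.22, *E2f1* 0.25 and *E2f5* 0.21), 1 in neo/- (*E2f5* 0.22), and in cKO *E2f7* rose (0.27) and *E2f2* fell (-0.25). Of 6 further DREAM and MYB partners *Mybl1* was called against controls, and it rose in cKO (0.41). Of 23 genes of the ubiquitin ligases SCF and APC/C and the checkpoint kinases, 2 rose in neo/neo, 4 rose and 1 fell in neo/-, and 1 rose and 2 fell in cKO. *Anapc11*, an APC/C subunit, was among those that rose in each (0.38, 0.49 and 0.28). Of all genes, 8.16% were called in either direction in neo/neo, 11.5% in neo/- and 11.4% in cKO.

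Of 20 measured CDK inhibitors, cyclins and kinases outside the 36, 1 rose and 1 fell in each hypomorph, and 2 rose and 3 fell in cKO. The share of all genes called was 8.16% in neo/neo, 11.5% in neo/- and 11.4% in cKO. The inhibitor p21 (*Cdkn1a*), a p53 target, read 7.74, 3.56 and 6.75 CPM in Ctrl and 70.3, 100.3 and 100.2 in cKO, with no overlap and a change of 3.90 (SE 0.33, adjusted p = 0.00511). At E12.5 it stood at -0.18 in neo/neo and -0.02 in neo/-, not called. *Ccng1* (cyclin G1), another p53 target, changed by 2.61 (SE 0.16, adjusted p = 0.000388) in cKO and by 0.25 (SE 0.073, adjusted p = 0.0414) in neo/-. So the transcripts of p21 and p27, related inhibitors of CDKs, were called in opposite directions in cKO.

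Markers of the cell types in the dissections moved with some of the groups, and their part in the results above was not tested. The counts called stand beside 8.16% of all genes called in neo/neo, 11.5% in neo/- and 11.4% in cKO. Of 12 neuron markers 3 fell in neo/neo (*Map2*, *Dcx* and *Snap25*) and 2 in neo/- (*Dcx* and *Map2*), and their summed level in +/- was 4266 to 5020 CPM. At E10.5 it was 229 to 408 in Ctrl and 267 to 373 in cKO, with *Neurod6* at 0 in every library, and *Snap25* alone fell. Of 10 radial glia markers 2 rose in neo/neo (*Pax6* and *Sox2*), 0 in neo/- and 1 fell in cKO (*Prom1*), with sums of 2925 to 3139 CPM in +/+, 2932 to 3358 in neo/neo, 2022 to 2474 in Ctrl and 2236 to 2541 in cKO. All 7 intermediate progenitor markers were without a call against controls. Radial glia markers were thus measured at both stages and neuron markers chiefly at E12.5.

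Of 6 erythroid markers 3 rose in neo/- (*Hbb-bh1* and *Hba-x* among them), with sums of 4304 to 6863 CPM against 2982 to 3666 in +/+ and no call in neo/neo or cKO. Of 7 markers of mesenchyme and meninges 2 rose in cKO (*Col1a2* and *Col3a1*), with sums of 808 to 999 CPM against 648 to 737 in Ctrl. Of 9 ventral telencephalic markers 1 fell in cKO (*Gsx2*), with sums of 23.3 to 34.4 CPM against 34.9 to 57.4. Of 7 endothelial markers 1 fell in neo/neo (*Kdr*) and 1 rose in cKO (*Cdh5*), with sums of 225 to 273.9 CPM in cKO against 203 to 227 in Ctrl. Of 7 microglial markers 1 rose in cKO (*Cx3cr1*), with sums of 29.04 to 31.3 CPM against 23.7 to 27.6. Markers of surface ectoderm, with *Krt14* at 0 in all +/+ and neo/neo libraries, had no call. The part of these markers in the results was not tested either.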

How the data were processed

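RNA was sequenced from 12 E12.5 neocortices of single embryos and from 6 E10.5 pools of 2 embryos, as paired-end strand-marked libraries, each in 2 runs. The raw counts per gene deposited by the authors came, according to the labels and methods, from reads trimmed with Trim Galore 0.4.1, checked with FastQC 0.11.2, aligned with TopHat2 2.1.0 and counted with featureCounts 1.5.0 on GRCm38. The stated command sets no strand, and the options for E10.5 are not given in the sources used here. All 36 count columns were used, and the 2 runs of a library were summed. Antisense overlaps therefore cannot be separated, and total counts limit the precision of low genes alone (counting error only).

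Counts were fitted with edgeR 4.0.16 (R 4.3.3) by the quasi-likelihood test with TMM scaling, filterByExpr and robust estimation, in 1 fit per stage (genotype only) and 1 fit of 18 libraries for the differences between stages. SE is the absolute log2 fold change divided by the square root of F. P-values were adjusted by Benjamini-Hochberg over all genes tested and called at 0.05. The steps were tested on simulated data. At E12.5 replicates are separate embryos, and at E10.5 separate pools.

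The text names all 36 genes by role and, of 15 fixed lists, the counts called and up to 3 genes of smallest adjusted p per comparison. Some genes under this rule are not reported here. The genes and lists were chosen with earlier results of these data known. *Cdkn1a* was named as a member of such a list. For neo/neo and +/- the correlations of same-numbered samples were 0.11, 0.20 and 0.20, all above 0.1, so these numbers were taken to pair the samples, although no label or method names what they share. In the other comparisons they were not. Alternatives were DESeq2 1.42.0, RLE and upper quartile scaling, no filter on low counts, a covariate of sex-linked expression, removal of length and GC trends (loess, span 0.5), the replicate block, the 2 compared groups alone, each run alone (E10.5) and each library left out.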

Additional observations from a re-analysis of the deposited data

Results flagged for a closer look

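The effect of cKO at E10.5 and that of a hypomorph at E12.5 differed, by edgeR's test of the difference of effects, for 18 combinations of gene and comparison. Stage, sequencing and type of allele differ together in them and cannot be told apart. Against neo/-, the difference (cKO effect minus neo/- effect, log2) was -0.24 for *Cdk2*, -0.30 for *Ccnb1*, -0.33 for *Ccnb2*, -0.40 for *Cdk1*, -0.58 for *Cks2*, -0.34 for *Cdc25c* and 0.32 for *Rbl2*. Against neo/neo it was -0.33 for *Cdk2*, -0.36 for *Ccnb2*, -0.37 for *Cdk1*, -0.50 for *Cks2*, -0.38 for *Cdc25b*, -0.33 for *Cdc25c*, -0.39 for *Pkmyt1*, -0.26 for *Fbxo5*, -0.31 for *Cdkn1b*, 0.51 for *Ccnd2* and 0.66 for *Cdk6*. For *Cks2* all 19 alternatives kept the call in both comparisons, and for *Cdk2* and *Cdkn1b* all 19 kept that against neo/neo, whereas *Ccnd2* and *Fbxo5* kept theirs in 5 of 19 each, *Cdk6* in 8 of 19, *Ccnb1* in 8 of 19 and *Rbl2* in 9 of 19.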

How the results depend on the processing

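Among the called genes of the 36 no change turned its direction under any alternative run. In 440 of the values recomputed under an alternative the call was kept and in 250 it was lost. In neo/neo the count that rose went from 4 to 7 with DESeq2 and to 0 with only the 2 groups compared. In neo/- it was 2, with 1 that fell, once length and GC trends were removed. In neo/neo against +/- it was 7 with DESeq2, and the counts higher and lower were 1 and 0 with the sex covariate or without length and GC trends, 2 and 0 with the replicate block, 0 and 0 with block and trends together, and 0 and 0 with the 2 groups alone. In cKO, DESeq2 called 5 and 5, the fit without a filter on low counts 6 lower, and the replicate block 5 and 6. In the difference of effects between cKO and neo/-, 3 were higher with DESeq2 or the block, 3 lower with RLE scaling or without the filter, and 0 and 3 without length and GC trends. In that between cKO and neo/neo, 1 was higher with RLE or upper quartile scaling, 0 without the filter or without length and GC trends, and 1 higher and 5 lower with the sex covariate. The causes were not tested, and fits of 2 groups also hold fewer samples.

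With each library left out in turn, the counts higher and lower ranged from 0 to 8 and 1 to 1 in neo/neo, 0 to 4 and 1 to 2 in neo/-, 0 to 11 and 0 to 2 in neo/neo against +/-, 1 to 3 and 1 to 6 in cKO, 0 to 2 and 1 to 9 in cKO against the neo/- effect, and 0 to 2 and 3 to 11 in cKO against the neo/neo effect, and stayed at 0 in +/- and in neo/- against neo/neo. Where the numbers were not taken to pair samples, the replicate block otherwise moved no count of calls among the 36 by over 1.5 times.

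Over all genes, the number called in +/- was 4, and 15 with DESeq2, 2 with the replicate block and 1 with the 2 groups alone. In neo/neo it was 1534, and 1006 with the sex covariate, 939 without length and GC trends (556 higher and 383 lower against 697 and 837) and 430 with the 2 groups alone. In neo/- it was 2158, and 1292 without the trends and 2687 with the 2 groups alone. In neo/neo against +/- it was 994, and 1788 with DESeq2, 330 with the sex covariate, 350 without the trends (210 higher and 140 lower against 377 and 617), 572 with the block, 224 with block and trends, and 42 with the 2 groups alone. In neo/- against neo/neo it was 3, and 27 with DESeq2, 9 without the filter and 1 with the 2 groups alone, and in cKO against the neo/- effect 1329, and 617 without the trends. In cKO against the neo/neo effect the split of 713 higher and 618 lower became 424 and 598 without the trends. With each library left out in turn, these numbers ranged from 2 to 6 in +/-, 435 (without neo/neo replicate 2) to 2605 (without neo/neo replicate 3) in neo/neo, 1015 (without neo/- replicate 2) to 1539 in neo/-, 23 to 2100 (without the same neo/neo libraries) in neo/neo against +/-, 1 to 23 in neo/- against neo/neo, 538 (without cKO replicate 2) to 2483 in cKO, where the full count was 2110, and, without cKO replicate 2 at the lowest, 533 to 1796 and 623 to 1850 in cKO against the neo/- and neo/neo effects. They moved by over 1.5 times without +/+ replicate 2 or 3 or any neo/neo library in neo/neo, +/+ replicate 3 or any neo/- library in neo/-, +/- replicate 1 or 3 or any neo/neo library in neo/neo against +/-, Ctrl replicate 3 or cKO replicate 2 or 3 in cKO, and, for the differences of effects, cKO replicate 2 or 3 in both, +/+ replicate 3, Ctrl replicate 1 or any neo/- library against neo/-, and +/+ replicate 2 or 3 or neo/neo replicate 1 or 2 against neo/neo. Depth limits only *Cdkn2a*, with 3 counts at most.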
